A study of Mus musculus with 6 samples.

Results

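The genes described here are the 10 that encode the pyruvate dehydrogenase kinases (Pdk1, Pdk2, Pdk3 and Pdk4), the phosphatases (Pdp1 and Pdp2) and subunits of the complex they act on (Pdha1, Pdhb, Dlat and Pdhx). They were measured among 38561 genes in RNA from mouse small intestinal mucosa, and all 10 were among the 16425 genes past the expression filter. The genes were chosen on the difference between genotypes in these same libraries, so their own differences between genotypes are given as a description, without a p-value. Their calls at the edgeR threshold are only counted. The study compared mice with an intestine-specific deletion of Rbm47, an RNA-binding protein, with controls that its methods describe as floxed, Rbm47 fl/fl, mice and that the labels call wt. Deletion was by a Villin promoter-driven Cre that is constitutively active in the intestinal epithelium, so that muscle, stroma and immune cells of the mucosa were not targeted. All mice were on a C57BL/6J background, 8 to 12 weeks old by the labels, and the study's methods give an injection of BrdU, a DNA label, shortly before harvest, with no other treatment named for these pools. Each genotype was sequenced as 3 pools, each of RNA from 3 mice of both sexes by the labels, after oligo-dT selection, so that the pool and not the mouse is the replicate. The study's methods give slightly wider ranges for the age and the number of mice per pool.

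Pyruvate dehydrogenase is the mitochondrial complex that converts pyruvate to acetyl-CoA and so joins glycolysis to the citric acid cycle. The kinases phosphorylate its E1 alpha subunit and switch the complex off, and the phosphatases remove the phosphate and switch it on. Kinase levels are known to respond to fasting, fat supply and low oxygen, through which tissues spare glucose carbon. The transcripts measured here do not report phosphorylation or activity of the complex.

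Depth ranged from 31560320 to 38951830 counts per pool and did not separate the genotypes. Rbm47 (ENSMUSG00000070780, chromosome 5, 66016549 to 66173117) had a CPM, its count scaled to the normalized library size, of 602.7, 624.6 and 619.8 in the pools labelled Rbm47_IKO and of 459.8, 449.9 and 472.1 in the control pools. The targeted transcript was therefore not lower where the label says it was deleted (log2 fold change 0.42, SE 0.10, edgeR adjusted p = 0.0751, past 0.05 in 2 of 17 alternatives, DESeq2 and library size only), so those pools are called IKO-labelled throughout, after their label only. The tables do not show which exons the reads covered. Villus enterocyte markers, 10 of 10 detected, had a summed CPM of 50653 to 55149 in those libraries and 61036 to 68471 in controls, and goblet cell markers, 6 of 6 detected, 19925 to 22692 against 14980 to 17365. The genotypes therefore did not overlap in either sum. The villus sum was carried by a few lipid-handling genes, with Apob at 10378 against 18912 and Apoa4 at 3361 against 6762 mean CPM, while 5 of the 10 markers were higher in the IKO-labelled pools and their median log2 fold change was -0.04. With edgeR 0 genes of either list passed, against 4 and 2 at an unadjusted p under 0.05 (16.8% of all genes tested), 3 and 2 with DESeq2, and 1 and 0 with limma-voom. Summed smooth muscle markers, 6 of 6 detected, varied widely within both genotypes, from 360.9 to 3302 and from 90.7 to 2803. Enteroendocrine markers, 7 of 7 detected, summed to 117.5 to 128.7 against 156.1 to 200.9 CPM, all 7 lower, and the hormone gene Ghrl was called (-1.44, edgeR adjusted p = 0.0393). All 6 B and plasma cell markers (median log2 fold change -0.75) and all 4 endothelial markers (-0.40) had lower values, with sums that overlapped and 0 called by edgeR, by DESeq2 or at an unadjusted p under 0.05. Of 8 crypt and proliferation markers 1 was higher (median -0.18), and of 5 myeloid markers 1 (-0.21). Their sums overlapped and edgeR called 0. In the crypt list 2 genes had an unadjusted edgeR p under 0.05 and DESeq2 called 1, in the myeloid list 1 and 1. The crypt gene Olfm4 had a mean CPM of 15.2 against 47.8 (-1.65, edgeR adjusted p = 0.0974). Pancreas acinar markers summed to 17.9 CPM in IKO-labelled pool 3 and 2.14 to 3.49 in the other pools. No marker in these lists was at 0 in all pools. In such bulk RNA, fewer cells of a type and less RNA per cell cannot be told apart, and the part of these markers in the values below was not tested, apart from a fit with the smooth muscle genes as covariate, whose values are given for Pdk3, Pdk4 and Ldhb.

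At 5′ to 3′, the windows upstream of the 4 genes whose pools did not overlap between genotypes are shown, of which 2, Pdk3 and Pdp2, were higher and 2, Pdha1 and Pdhx, lower in the IKO-labelled pools (of all genes tested, 23.3% had pools that did not overlap). Sequences are from RefSeq (GRCm38.p6) and run from 250 to 56 bases before the RefSeq start, which differs by some bases from the gene boundary printed for each gene below. Capitals mark the matches to 6 motifs searched on both strands, of which CCAAT (the NF-Y box), GGGCGG (the GC box) and ACGTG (the core of the hypoxia response element) occurred.
Pdk3 promoter, chrX:93832206-93832400, minus strand: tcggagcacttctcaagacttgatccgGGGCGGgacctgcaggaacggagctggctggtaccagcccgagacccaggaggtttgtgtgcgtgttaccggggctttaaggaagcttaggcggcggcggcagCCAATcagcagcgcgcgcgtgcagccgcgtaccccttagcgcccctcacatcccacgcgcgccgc
Pdp2 promoter, chr8:104591222-104591416, plus strand: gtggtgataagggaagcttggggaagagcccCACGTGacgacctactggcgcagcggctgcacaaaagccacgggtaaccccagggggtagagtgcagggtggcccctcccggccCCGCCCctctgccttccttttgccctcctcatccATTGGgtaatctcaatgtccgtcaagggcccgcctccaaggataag
Pdha1 promoter, chrX:160138486-160138680, minus strand: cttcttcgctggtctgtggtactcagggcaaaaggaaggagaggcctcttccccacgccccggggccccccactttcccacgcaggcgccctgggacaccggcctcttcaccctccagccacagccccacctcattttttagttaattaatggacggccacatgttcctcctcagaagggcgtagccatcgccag
Pdhx promoter, chr2:103073569-103073763, minus strand: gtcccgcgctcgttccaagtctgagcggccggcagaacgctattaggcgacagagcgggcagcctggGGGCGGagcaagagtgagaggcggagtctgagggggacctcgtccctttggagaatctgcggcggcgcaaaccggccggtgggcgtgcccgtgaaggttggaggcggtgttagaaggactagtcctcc
The Pdk3 window held 1 CCAAT and 1 GGGCGG, and the Pdhx window 1 GGGCGG. The Pdp2 window held 1 of each as well, both read on the opposite strand, and the palindrome CACGTG, in which ACGTG occurs once on each strand and overlaps itself. The Pdha1 window held none of the 6 motifs, which says only that those letters are not in it. Of the members, 9 had an entry, and Pdk1 and Pdk2 had another entry inside the gene that held no match. CCAAT was present in 5 of the 9 (Pdk2, Pdk3, Pdk4, Pdp2 and Pdhb), against 27.6% of 32851 promoter windows of the same length. GGGCGG was present in 6 of the 9 (Pdk1, Pdk3, Pdp2, Pdhb, Dlat and Pdhx), against 23.8%. ACGTG was present in 3 (Pdk2, Pdp2 and Pdhb), against 12.5%. The antioxidant response element TGACNNNGC, the estrogen-related receptor element AAGGTCA and TATAAA were in 0 of the 9, against 7.4%, 3.28% and 8.95% of all windows. Windows upstream of the members had a GC content of 59.0% to 66.7%, above the median of 51.3% over all windows, and the GC box is itself made of G and C.

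The 3′ UTRs are described because the protein deleted in this study binds RNA. ATTTA, the DNA letters of the AU-rich pentamer AUUUA, was counted in the longest 3′ UTR of each gene in GENCODE M21 (GRCm38). Pdk3 (618 bases) and Pdk2 (924 bases) held 0 copies, and the other 8 genes held between 1 copy (Pdhb, 340 bases) and 9 copies (Pdp1, 2389 bases). Among 14131 tested genes with a 3′ UTR, 69.7% held at least 1 copy, and the median length was 1321 bases. Pdk3 and Pdk2, like Pdhb and Dlat, were without a run of 6 or more T, which 56.3% of the genes held, and the UTRs of Pdk3 and Pdk2 were both shorter than the median. Per kilobase, Pdhx (4.28), Dlat (3.91), Pdp1 (3.77) and Pdha1 (3.18) were highest, against a median of 1.18. The first copy in 4 of the genes is shown, with the pentamer in capitals, to set beside Pdk3, which had none.
Pdk4 3′ UTR site: gagtgtgaaaATTTAaatccttctt
Pdp2 3′ UTR site: taaaggataaATTTAatcatgagtc
Pdha1 3′ UTR site: aattttttccATTTAgacatttaac
Pdhx 3′ UTR site: aaaatatctaATTTAaaaaaaaaca
In all, the UTRs of these 4 genes held 4 copies in Pdk4, 7 in Pdp2, 5 in Pdha1 and 6 in Pdhx. Nothing about the genotype difference is read from these counts.

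Levels per kilobase, as RPKM on the same normalized library sizes, show which enzymes dominate this tissue. Pdha1, the catalytic E1 alpha subunit that carries the phosphorylation sites, was highest at 35.3 RPKM over the 6 pools and exceeded 91.4% of the genes tested. Pdhb, its E1 beta partner, followed at 24.7 RPKM, then Pdk2 at 22.3, Pdp2 at 17.7, Pdk3 at 17.3 and Dlat, the E2 acetyltransferase core, at 10.1. The place of Pdk3 differed between genotypes, at 23.7, 28.3 and 23.5 RPKM in the IKO-labelled pools, at or above Pdk2 and above Pdp2 in each, and at 9.66, 10 and 8.72 in controls, in the range of Dlat. Pdhx, the E3-binding protein of the core, Pdk1 and Pdk4 lay close together at 4.09, 3.93 and 3.8 RPKM. Pdp1, the calcium-sensitive phosphatase, was lowest at 0.762 RPKM, below Pdp2 in every pool and above only 25.3% of the genes tested. Pdha2, the testis form of E1 alpha, had 0 counts in all 6 pools, which allows up to 3 counts per pool, counting error only. Each pool gave 1 difference per pair of neighbours in this order. Pdha1 exceeded Pdhb 1.42-fold, Pdk2 exceeded Pdp2 1.28-fold, Dlat exceeded Pdhx 2.46-fold and Pdk4 exceeded Pdp1 4.29-fold, each in 6 of 6 pools. The ratio of Pdk2 to Pdp2 was 1.02 to 1.1 in the IKO-labelled pools and 1.28 to 1.84 in controls. An exact two-sided sign-flip permutation test gave p = 0.0312 for each of these 4, the smallest that 6 pools allow, or 0.0703 adjusted over the 9 neighbour pairs. The other 5 neighbour pairs did not keep their order in every pool and had an exact permutation p of 0.125 to 0.5. No pair thus passed an adjusted p of 0.05, but with 0.0312 as the smallest p this does not show that neighbours were close in level. The pairs were set by ranking these same pools.

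**Figure D1:**
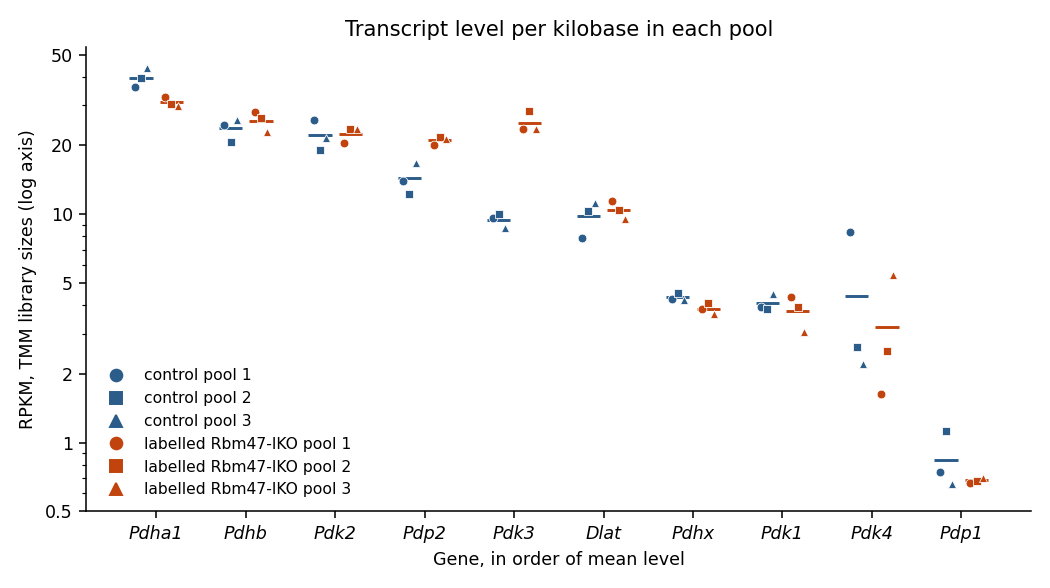
RPKM of the 10 genes in each pool on a log axis, ordered by the mean over 6 pools. Blue marks are control pools, orange marks are IKO-labelled pools, marker shapes give the pool number and bars are means of 3 pools. The orange and blue marks of Pdk3 are the farthest apart relative to their spread, and Pdk4 ranges from 1.64 to 8.39 RPKM across both genotypes.

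Among the kinases, Pdk3 stood apart (ENSMUSG00000035232, chromosome X, 93764607 to 93832201, minus strand). Pdk3 is the isoform known for high activity toward the complex and for little inhibition by pyruvate. Its CPM was 60.7, 72.5 and 60.3 in the IKO-labelled pools and 24.7, 25.7 and 22.3 in controls. Every IKO-labelled pool was thus above every control, with no overlap. The means were 64.5 ± 6.92 (SD, n = 3) and 24.3 ± 1.73 (SD, n = 3), a 2.66-fold difference (log2 fold change 1.41, SE 0.12). The counts behind it were 2101, 2745 and 1969 against 841, 975 and 814. Because Pdk3, like Pdha1, lies on the X chromosome and the pools hold both sexes, Xist, the RNA expressed from the inactive X, is given beside it. Xist CPM was 75.6, 258.1 and 40.3 in the IKO-labelled pools and 1.09, 150.0 and 0.686 in controls. Across the controls Pdk3 stayed between 22.3 and 25.7 CPM while Xist ran from 0.686 to 150.0, and in each genotype pool 2, with the most Xist, also had the most Pdk3. The part of sex composition in the Pdk3 difference was not tested. The labels give both sexes for every pool, yet Xist was near 0 in control pools 1 and 3. Summed Y-linked genes, 4 of 4 detected, ranged from 53 to 143.7 CPM in the IKO-labelled pools and from 87.9 to 220.3 in controls. A fit with those genes as covariate gave Pdk3 a log2 fold change of 1.31, and a fit with the smooth muscle genes 1.41.

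Pdk2, the most widely expressed isoform (ENSMUSG00000038967, chromosome 11, 95026258 to 95041354, minus strand), had a CPM of 64.6, 74.3 and 74.5 in the IKO-labelled pools and 81.9, 60.4 and 68.1 in controls. The genotypes overlapped, and the log2 fold change was 0.02 (SE 0.14), with the opposite sign in 4 of 17 alternative analyses. Pdk1, a known target of hypoxia-inducible factor (ENSMUSG00000006494, chromosome 2, 71873224 to 71903858, plus strand), had 33.9, 30.5 and 23.7 CPM against 30.5, 30 and 34.9. It overlapped as well, with a log2 fold change of -0.11 (SE 0.15) that was 0.02 without IKO-labelled pool 3.

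Pdk4, the isoform induced by fasting and by fatty acids through PPAR receptors (ENSMUSG00000019577, chromosome 6, 5483351 to 5496309, minus strand), varied most. Its CPM was 5.75, 8.82 and 19.1 in the IKO-labelled pools and 29.5, 9.17 and 7.74 in controls. Control pool 1 was the highest and IKO-labelled pool 3 the next, so the spread lay within the genotypes, 3.32-fold and 3.81-fold from lowest to highest pool. Its log2 SD within genotypes was 0.96, larger than that of 94.5% of the genes tested, whose median was 0.24. For comparison, the SD was 0.13 for Pdk3 and 0.07 for Pdhx, the steadiest member, larger than that of only 3.0% of the genes. The log2 fold change of Pdk4 was -0.46 (SE 0.60), but 0.41 without control pool 1, -0.05 with the Y-linked covariate and -0.25 with the smooth muscle covariate, so that these pools give no stable direction.

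The lipoprotein lipase inhibitor Angptl4, also a fasting-induced PPAR target, ordered the pools much as Pdk4 did. Its CPM was 16.8, 19.4 and 31.1 in the IKO-labelled pools and 147.1, 23 and 11.6 in controls. Both genes were highest in control pool 1 and next in IKO-labelled pool 3, and their 2 lowest pools were IKO-labelled pool 1 and control pool 3. Angptl4 was not called between genotypes (log2 fold change -1.43, SE 0.84, edgeR adjusted p = 0.463) and was named after its values were seen. Not all genes of that list ordered the pools so. Plin2, a lipid droplet protein, was lowest in control pool 1, at 36.4 CPM against 53 to 64.1 elsewhere. Clock genes, core and output together, 9 of 9 detected and none at 0 in all pools, summed to 725.5 to 880.3 CPM in the IKO-labelled pools and 599.0 to 702.3 in controls. Of these 9, 8 were higher in the IKO-labelled pools, and the core clock gene Arntl was lower (-0.29, edgeR adjusted p = 0.451). Ciart, a circadian repressor, was called, at 10.7, 11.5 and 15 against 3.03, 3.4 and 2.83 CPM (log2 fold change 2.01, edgeR adjusted p = 0.00872). The study kept mice on free chow unless noted. Feeding state and hour at collection, pool by pool, are not given in the sources used here, and their part was not tested.

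**Figure D2:**
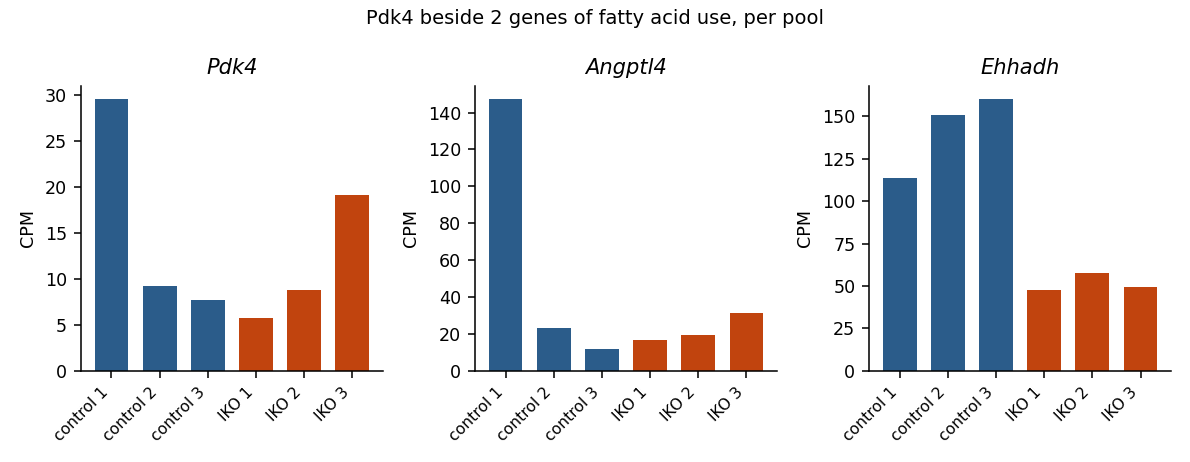
CPM of Pdk4, Angptl4 and Ehhadh in each of 6 pools, with control pools in blue and IKO-labelled pools in orange. Pdk4 and Angptl4 are both highest in control pool 1, at 29.5 and 147.1 CPM, while Ehhadh separates the genotypes with all 3 control pools above 100 CPM.

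The make-up of the kinase transcripts differed accordingly. Pdk3 made up 47.3%, 48.6% and 42.4% of the summed kinase RPKM in the IKO-labelled pools and 20.2%, 28.2% and 23.6% in controls. It was the largest share in 2 of the 3 IKO-labelled pools and equal to Pdk2, to 3 digits, in pool 3, whereas Pdk2 was the largest in all 3 controls. The share of Pdk2 was 41.2% ± 1.07 (SD, n = 3) against 55.3% ± 2.56 (SD, n = 3), although the pools overlapped in its level. Pdk1 held 6.97% ± 1.63 (SD, n = 3) against 10.4% ± 2.02 (SD, n = 3), and Pdk4 5.79% ± 3.5 (SD, n = 3) against 10.3% ± 6.32 (SD, n = 3), both with overlapping pools. Summed kinase RPKM was 54.6 ± 4.13 (SD, n = 3) against 40.1 ± 6.73 (SD, n = 3) without overlap. Without Pdk3 the sums were 29.5 ± 2.83 (SD, n = 3) and 30.7 ± 6.67 (SD, n = 3), and they overlapped. These shares and sums are built from the members' own values and add no separate evidence.

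Of the phosphatases, Pdp2, the isoform that does not need calcium and is known to respond to insulin (ENSMUSG00000048371, chromosome 8, 104591468 to 104596836, plus strand), was higher in the IKO-labelled pools. Its CPM was 69.6, 75.7 and 74.5 there and 48.9, 42.7 and 58.6 in controls. No pool overlapped, and the means of 73.3 ± 3.24 (SD, n = 3) and 50.1 ± 8.05 (SD, n = 3) differed 1.46-fold (log2 fold change 0.55, SE 0.13). Pdp1 (ENSMUSG00000049225, chromosome 4, 11958184 to 11966452, minus strand) had 3, 3.06 and 3.15 CPM against 3.35, 5.06 and 2.96. Control pool 2 alone was high, and the log2 fold change of -0.30 (SE 0.26) was -0.04 without it. Pdp2 supplied 96.9% ± 0.101 (SD, n = 3) of the summed phosphatase RPKM in the IKO-labelled pools and 94.3% ± 2.4 (SD, n = 3) in controls.

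Kinase and phosphatase transcripts were both higher in sum, and their ratio was not separated. The ratio of summed kinase to summed phosphatase RPKM was 2.43, 2.6 and 2.52 in the IKO-labelled pools and 3.24, 2.66 and 2.11 in controls. The controls spanned all the IKO-labelled pools, with means of 2.51 ± 0.0851 (SD, n = 3) and 2.67 ± 0.562 (SD, n = 3). Without Pdk3 the ratio was 1.28, 1.33 and 1.45 against 2.58, 1.91 and 1.61, lower in every IKO-labelled pool. These are ratios of transcripts, and the isoforms differ in activity.

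**Figure D3:**
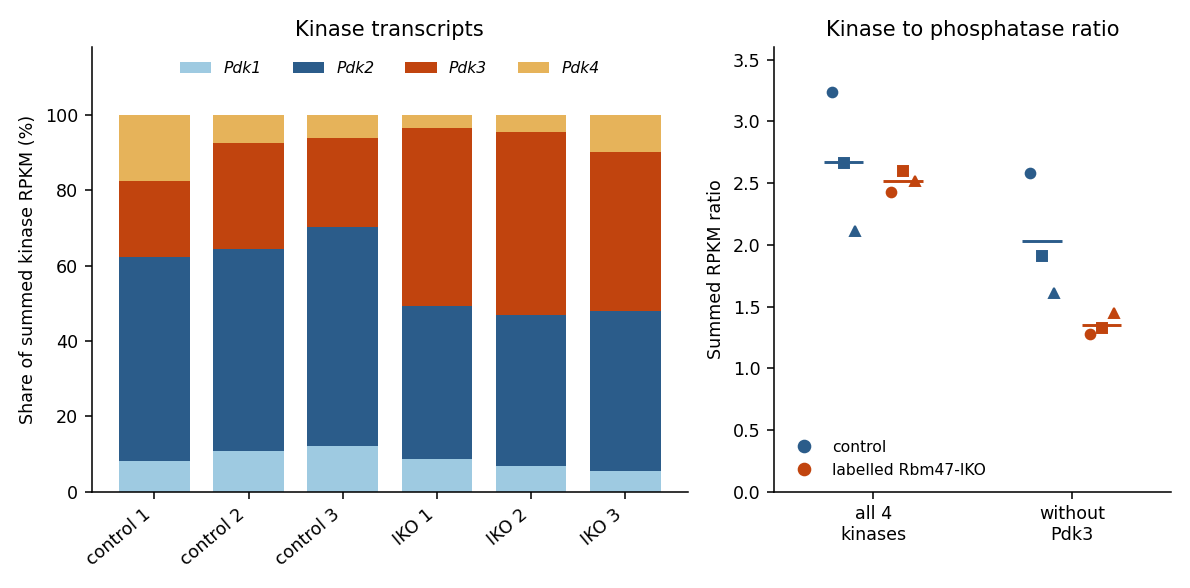
Left, the share of each kinase in the summed kinase RPKM of each pool, in percent. Right, the ratio of summed kinase to summed phosphatase RPKM with all 4 kinases and without Pdk3, where points are pools (shapes give pool numbers) and bars are means. Pdk3 takes 42.4% to 48.6% in the IKO-labelled pools and 20.2% to 28.2% in controls, while the ratio with all 4 kinases overlaps.

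Among the subunits, Pdha1, the target of the kinases, was lower in the IKO-labelled pools (ENSMUSG00000031299, chromosome X, 160122209 to 160138413, minus strand). Its CPM was 122.2, 113.3 and 111.0 there and 133.9, 147.6 and 162.7 in controls. The pools did not overlap, and the means of 115.5 ± 5.94 (SD, n = 3) and 148.1 ± 14.4 (SD, n = 3) gave a fold of 0.78 (log2 fold change -0.36, SE 0.11). Pdha1 shares 603 exonic bases with Map3k15 on the opposite strand, and the use of strand in counting is not given in the sources used here. Map3k15 had only 395 counts over the 6 pools.

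Its partner Pdhb (ENSMUSG00000021748, chromosome 14, 8165991 to 8172992, minus strand) had 41.4, 39.1 and 33.8 CPM against 36.7, 30.7 and 38.4, with overlap. The log2 fold change was 0.11 (SE 0.13), unlike that of Pdha1. The RPKM ratio of Pdha1 to Pdhb was therefore 1.21 ± 0.0824 (SD, n = 3) against 1.68 ± 0.23 (SD, n = 3), without overlap, and that of Pdk3 to its substrate Pdha1 was 0.816 ± 0.107 (SD, n = 3) against 0.241 ± 0.0363 (SD, n = 3). Dlat (ENSMUSG00000000168, chromosome 9, 50634633 to 50659780, minus strand) had 55.9, 50.9 and 46.6 CPM against 38.4, 50.4 and 54.7, and the log2 fold change was 0.10 (SE 0.15), or -0.04 without control pool 1. Pdhx (ENSMUSG00000010914, chromosome 2, 103021075 to 103073513, minus strand) had 15, 16.1 and 14.3 CPM against 16.7, 17.8 and 16.5. Dlat overlapped, while Pdhx was slightly lower in every IKO-labelled pool, with a log2 fold change of -0.17 (SE 0.11).

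Across the 10 genes, the pools of 4 (Pdk3, Pdp2, Pdha1 and Pdhx) did not overlap between genotypes, and those of 6 did. Of all genes tested, 23.3% had pools that did not overlap. At the edgeR threshold of an adjusted p of 0.05, which 2.70% of all genes met (1.45% higher and 1.25% lower in the IKO-labelled pools), 1 member, Pdk3, was past it and 9 were not. Since the members were chosen on this contrast, nothing is read from these counts. Their median log2 fold change was -0.05, against -0.01 over all genes tested.

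**Figure D4:**
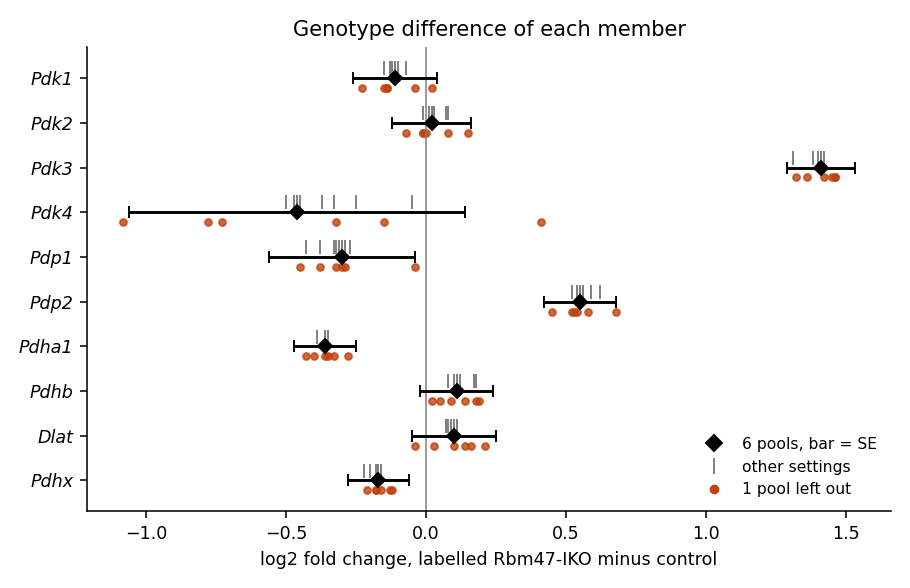
Log2 fold change of each gene, IKO-labelled pools minus control, over 6 pools (diamonds, bars are the SE), under 11 other settings (grey ticks) and with each of 6 pools left out (orange points). Pdk3 stays between 1.31 and 1.46, whereas Pdk4 runs from -1.08 to 0.41.

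The pools were next ordered by Pdk3 to find transcripts with the same pattern. The 5 genes with the highest Pearson correlation of log2 CPM with Pdk3 over 6 pools were Atf5 (0.9960), a stress-response transcription factor, Ext2 (0.9959), a heparan sulfate polymerase, Tysnd1 (0.9954), a peroxisomal protease, Masp1 (0.9948), a protease of the complement lectin pathway, and Fer1l4 (0.9943). All 5 were higher in the IKO-labelled pools, by 0.58, 0.51, 0.30, 4.84 and 1.72 on the log2 scale. The correlation is a description over 6 points that fall into the genotypes, so it mainly orders genes by how evenly they separate them.

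Genes around the complex were then read from 8 lists by textbook role, with 98 of 100 genes tested. The lists were drawn up with earlier results of these data known. Of the 98, 4 passed the edgeR threshold, which 2.70% of all genes tested met, 2 upward and 2 downward. The median log2 fold change was 0.03. Those higher were Bckdha, the E1 alpha subunit of the branched-chain keto acid dehydrogenase and so the counterpart of Pdha1 in a sister complex, and Aldoc, an aldolase. Bckdha had a CPM of 29.3, 33.7 and 30 against 16.3, 20.7 and 19.6 (log2 fold change 0.72, SE 0.13, edgeR adjusted p = 0.0365). Aldoc had 11.3, 14.8 and 12.8 against 2.29, 5.09 and 5.52 (log2 fold change 1.59, SE 0.32, edgeR adjusted p = 0.0481). Those lower were both enzymes of fatty acid oxidation, peroxisomal Ehhadh and mitochondrial medium-chain Acadm. Ehhadh had 47.8, 57.4 and 49.5 CPM against 113.8, 151.1 and 160 (log2 fold change -1.46, SE 0.15, edgeR adjusted p = 0.00875). Acadm had 66.7, 66.3 and 57.8 against 97.6, 108.3 and 112.4 (log2 fold change -0.74, SE 0.11, edgeR adjusted p = 0.0188). None of these 4 overlapped between genotypes, and unlike Pdk4 neither Ehhadh nor Acadm was highest in control pool 1. Each of the 4 lost its call in some alternatives. It held in 14 of 17 for Ehhadh (edgeR, limma or DESeq2 adjusted p 2.8e-14 to 0.0676), 11 for Acadm (3.25e-06 to 0.122), 10 for Bckdha (0.000499 to 0.214) and 9 for Aldoc (5.32e-05 to 0.231).

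The remaining partners of the complex did not pass the test. Of its partners, 5 of 6 were tested and 0 called by edgeR (1 at an unadjusted p under 0.05, 0 by DESeq2 or limma-voom), with a median log2 fold change of 0.08. Dld, the E3 subunit shared with the sister complexes, had a log2 fold change of -0.23 (SE 0.12, edgeR adjusted p = 0.393), and Pdpr, the regulatory subunit of the phosphatase, 0.08 (SE 0.12, edgeR adjusted p = 0.815). The lipoate enzymes Lipt2 and Lipt1, which supply the cofactor of the E2 core, had the largest values of that list at 0.29 and 0.27. Lias, the lipoate synthase, named after its values were seen, lay the other way at 25, 23.4 and 23.8 against 26.7, 29.6 and 28.7 CPM (-0.24, edgeR adjusted p = 0.293), and was the gene of the list with an unadjusted p under 0.05. Among 12 genes of pyruvate entry and other fates, edgeR called 0 (1 at an unadjusted p under 0.05, 1 by DESeq2, 0 by limma-voom), and the median was 0.24, with 11 of 12 genes at a positive value. The sum of the list was 2789 to 3522 CPM in the IKO-labelled pools and 2032 to 2645 in controls, without overlap. Without overlap, too, the hypoxia list summed higher (759.3 to 848.3 against 587.5 to 712.7 CPM), and glycolysis (5167 to 5878 against 6379 to 6941) and the fatty acid and PPAR list (1490 to 1637 against 1937 to 2055) lower. Malic enzyme Me2, named after its values were seen, had 1131, 1300 and 1006 against 805.2, 708.3 and 789.6 CPM, also without overlap (log2 fold change 0.58, edgeR adjusted p = 0.0729). Me2 and Ldha, given below, had the highest CPM of the pyruvate list and so the largest part of its sum. Their mean CPM was 1146 and 1109 against 767.7 and 899.4, and Ldha overlapped between genotypes. The carrier subunits Mpc1 and Mpc2, which bring pyruvate into mitochondria, had -0.18 and 0.19 (edgeR adjusted p = 0.64 and 0.718), and pyruvate carboxylase, Pcx, 0.42 (edgeR adjusted p = 0.446). Lactate dehydrogenase Ldha had 0.30 (edgeR adjusted p = 0.563) and the lactate transporter Slc16a1 0.66 (edgeR adjusted p = 0.306). Control pool 1 was the lowest of the 6 pools for Pcx, Ldha, Slc16a1, Mpc2 and Ldhb, and for Slc16a3, Gpt and Me1 of the same list. The positive values of these genes thus lean on that pool. Without it Pcx had 0.17 and Ldha 0.10. Ldhb, the heart form of lactate dehydrogenase, had 0.982, 1.77 and 8.58 CPM against 0.206, 5.48 and 0.604. It was highest in the 2 pools where the summed smooth muscle markers were highest, IKO-labelled pool 3 (3302 CPM) and control pool 2 (2803 CPM), and its log2 fold change was 0.84 (SE 1.17, edgeR adjusted p = 0.815). With the smooth muscle genes as covariate it was 0.49 (edgeR adjusted p = 0.347).

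The sister dehydrogenase complexes had 1 of 8 genes called, Bckdha, and a median of 0.05. Dbt, the E2 core of the same branched-chain complex, had a log2 value of -0.78 between genotypes (edgeR adjusted p = 0.0774), opposite in sign to Bckdha, and is named after its value was seen. Glycolysis had 1 of 17 called, Aldoc, and a median of -0.03. Of the 14 citric acid cycle genes edgeR called 0 (4 at an unadjusted p under 0.05, 2 by DESeq2, 0 by limma-voom), and the median was -0.03. The largest values were those of the succinyl-CoA ligase subunit Suclg2 (-0.57, edgeR adjusted p = 0.0524) and the succinate dehydrogenase subunit Sdhd (-0.45, edgeR adjusted p = 0.206). The fatty acid and PPAR target list had 2 of 15 called and a median of -0.11. Its largest value was that of the fatty acid hydroxylase Cyp4a10, higher at 0.318, 0.607 and 0.582 against 0.0294, 0.105 and 0.11 CPM, from only 1 to 23 counts (2.56, edgeR adjusted p = 0.0617), named after its values were seen.

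Hypoxia response genes and transcription regulators of the Pdk genes were each without a call, in 0 of 12 and 0 of 15 genes, with medians of 0.08 and -0.00. In each of these lists 4 genes had an unadjusted edgeR p under 0.05, which 16.8% of all genes tested had, and DESeq2 and limma-voom called 0. The largest values in the hypoxia list were those of the prolyl hydroxylase Egln3 (1.26, edgeR adjusted p = 0.245) and the peptide hormone Adm (0.91, edgeR adjusted p = 0.297). In both, control pool 1 was far below the rest, at 33.1 against 135.6 to 281.5 CPM for Egln3 and 1.26 against 3.02 to 5.69 for Adm. Among the regulators, the largest were Pparg (0.98, edgeR adjusted p = 0.289), a nuclear receptor, and Nr1h4 (0.57, edgeR adjusted p = 0.368), the bile acid receptor. Pparg too was lowest in control pool 1, at 3.79 CPM, the pool in which Pdk4 was highest.

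**Figure D5:**
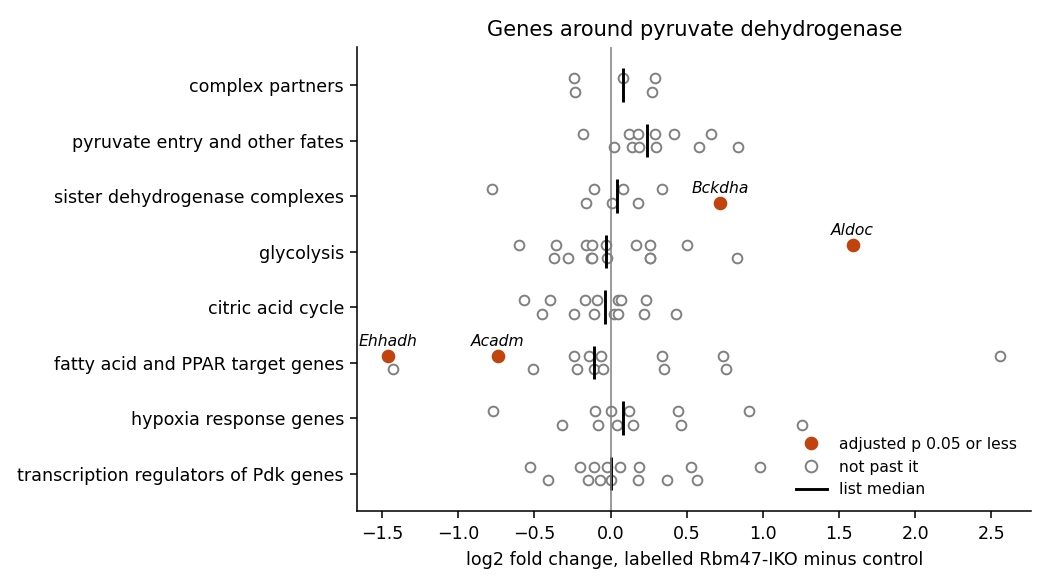
Log2 fold change, IKO-labelled pools minus control, of each tested gene in 8 lists around pyruvate dehydrogenase, with list medians as black bars. Filled points are the 4 genes past an edgeR adjusted p of 0.05, and list medians lie between -0.11 and 0.24.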

How the data were processed

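Small intestinal mucosa RNA was sequenced in 6 pools, 3 per genotype, grouped by the genotype in the labels. The authors deposited for each pool a count of reads on 38561 Ensembl genes. The submitters' processing notes name STAR 2.5.1a, Subread featureCounts 1.4.6-p5 and GRCm38. The CPM and RPKM columns that the authors deposited were recomputed from those counts, differed by at most 4.9e-11, and were not used further. Symbols were matched for 36639 genes, and genes without one held 0.369% of the counts. No pools were identical.

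Counts were fitted with edgeR 4.0.16 in R 4.3.3 (filterByExpr, TMM, quasi-likelihood test, Benjamini-Hochberg over 16425 genes). CPM and RPKM in the text use TMM library sizes. Alternatives used DESeq2 1.42.0, limma 3.58.1 (voom), other normalizations and filters, a robust fit, marker covariates, a replicate block and each pool left out. Levels were compared by an exact permutation test. The edgeR test was checked on simulated data with 200 changed genes. Reads are not independent molecules, and the limit of 3 counts covers counting error only.

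The members and lists were chosen with earlier results of these data known. Named were the members, Rbm47, 8 direct partners, the called genes of each list or its 2 largest where none was called, and the 5 genes most like Pdk3. Xist, Map3k15, Angptl4, Plin2, Lias, Me1, Me2, Slc16a3, Gpt, Cyp4a10, Dbt, the markers and the 6 motifs were chosen after values were seen. Nothing says whether pools of a genotype came from separate cohorts, so p-values measure only the spread between these pools. Values of some list genes are not reported here.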

Additional observations from a re-analysis of the deposited data

How the results depend on the processing

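Alternatives were 11 other settings and leaving out each of 6 pools. The number of genes called, 443, was 1252 with DESeq2, 716 with the muscle covariate, 58 with the Y-linked covariate and 100 with the replicate block, and from 0 to 431 with 1 pool left out. It was 0 without IKO-labelled pool 2 (edgeR, where 1729 genes had an unadjusted p under 0.05, compared with 2756 over the 6 pools), 11 without control pool 3, 32 without IKO-labelled pool 1 and 119 without IKO-labelled pool 3. Of the pathway list genes, 4 were called, against 11 with DESeq2, 8 with the muscle covariate, 7 with library size only, 1 with the Y-linked covariate, 1 with the replicate block and from 0 to 4 with 1 pool left out. The number was 0 without IKO-labelled pool 1, 0 without IKO-labelled pool 2, 0 without control pool 3 and 2 without IKO-labelled pool 3. For the members, whose edgeR calls are only counted, log2 fold changes ran from 1.31 to 1.46 for Pdk3. Pdk1, Pdk2, Pdk4 and Dlat took the opposite sign in 1, 4, 1 and 1 of 17 alternatives. The edgeR call counted for Pdk3 was lost without IKO-labelled pool 2 and without control pool 3. Pdp2, not called over the 6 pools, was past the threshold in 2 of the 11 other settings. The sign reversed for Mpc2 (-0.03 with the Y-linked covariate), Ldhb (-0.61 without IKO-labelled pool 3, range -0.61 to 3.20 with 1 pool left out) and Pdpr (-0.01 without control pool 2, range -0.01 to 0.17). The causes were not tested.

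Deviations of same-numbered pools had correlations of 0.408, -0.00258 and -0.277, within the range of differently numbered pools (-0.536 to 0.479). With 3 pools per genotype these values cannot show whether same-numbered pools share more than a number, which was not tested. Of the 100 genes called with the replicate block, 96 were among the 443. For the order of levels, 0 neighbour pairs passed in any analysis, and with 5 pools the smallest exact permutation p is 0.0625, which says nothing of stability. Without length scaling Pdhb came after Pdk2, Pdp2, Dlat and Pdk3 in the order, Dlat came before Pdk3 and Pdk1 before Pdhx. Depth limits Pdp1 most among the members, at 2.96 to 5.06 CPM.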
